A study of Mus musculus with 16 samples.

Results

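The genes described here are 32 genes typical of megakaryocytes and of the platelets they release, followed over 16 mouse arrays. A gene was counted as measured when a probe set of the deposited table named that gene alone, and the probe set with the highest mean was used where a gene had more than 1. In this way 27 of the 32 genes were measured, out of 19938 genes in all. Gp1ba, Gp1bb, Gp6, Serpine2 and Selp had no probe set of their own and were not analysed here. Differences between the groups played no part in the choice of probe set. The 32 genes themselves were chosen with earlier results of these data known.

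The study set B cell precursor leukemias of different genotype against normal B cell precursors, and its question was the role of Bank1 in this leukemia. In the Bank1/Pax5 group, 6 arrays held RNA of leukemic bone marrow from mice that were heterozygous both for Bank1 (Bank1+/-) and for Pax5 (Pax5+/-). In the Pax5 group, 6 arrays held RNA of leukemic bone marrow from mice that were heterozygous for Pax5 alone, so both leukemia groups carry the Pax5 lesion. The wild-type (WT) group had 4 arrays of pro-B and pre-B cells from bone marrow. No age, sex, strain or time of leukemia is given in the sources used here, and no agent was applied. All mice were kept in a conventional facility with common pathogens. The tissue of the leukemia arrays is given as total bone marrow and that of the WT arrays as pro-B and pre-B cells, so leukemia and cell preparation cannot be told apart in a comparison with WT. The labels number 4 WT mice as biological replicates while the design text names 3, and 1 label field calls the WT cells leukemic.

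Megakaryocytes are large bone marrow cells that shed platelets into the blood. Platelets carry granules filled with chemokines and clotting proteins, a dense set of surface receptors for collagen, von Willebrand factor, fibrinogen, thrombin and nucleotides, and a ring of microtubules that keeps their shape. GATA1, NF-E2, GFI1B and TAL1 are transcription factors of the megakaryocyte and erythroid lineages. Some of the genes, such as Cd9 and Plek, are also found in other cells.

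Most of the 27 genes had higher levels in both leukemias than in WT cells, and most were high and low on the same leukemic marrows. Their shared level on an array, the median log2 intensity of the 27 genes, was 9.62, 8.04, 8.03, 10.22, 10.17 and 8.64 on Bank1/Pax5 arrays 1 to 6. On Pax5 arrays 1 to 6 it was 7.71, 7.53, 8.80, 7.70, 8.79 and 9.39. The WT arrays read 7.14, 7.00, 7.09 and 7.07. All 12 leukemia arrays stood above the highest WT array, and the leukemia groups overlapped each other. Averaged over arrays, the shared level was 9.12 ± 1.01 (SD, n = 6) for the Bank1/Pax5 marrows, 8.32 ± 0.77 (SD, n = 6) for the Pax5 marrows and 7.08 ± 0.06 (SD, n = 4) for WT cells.

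**Figure D1:**
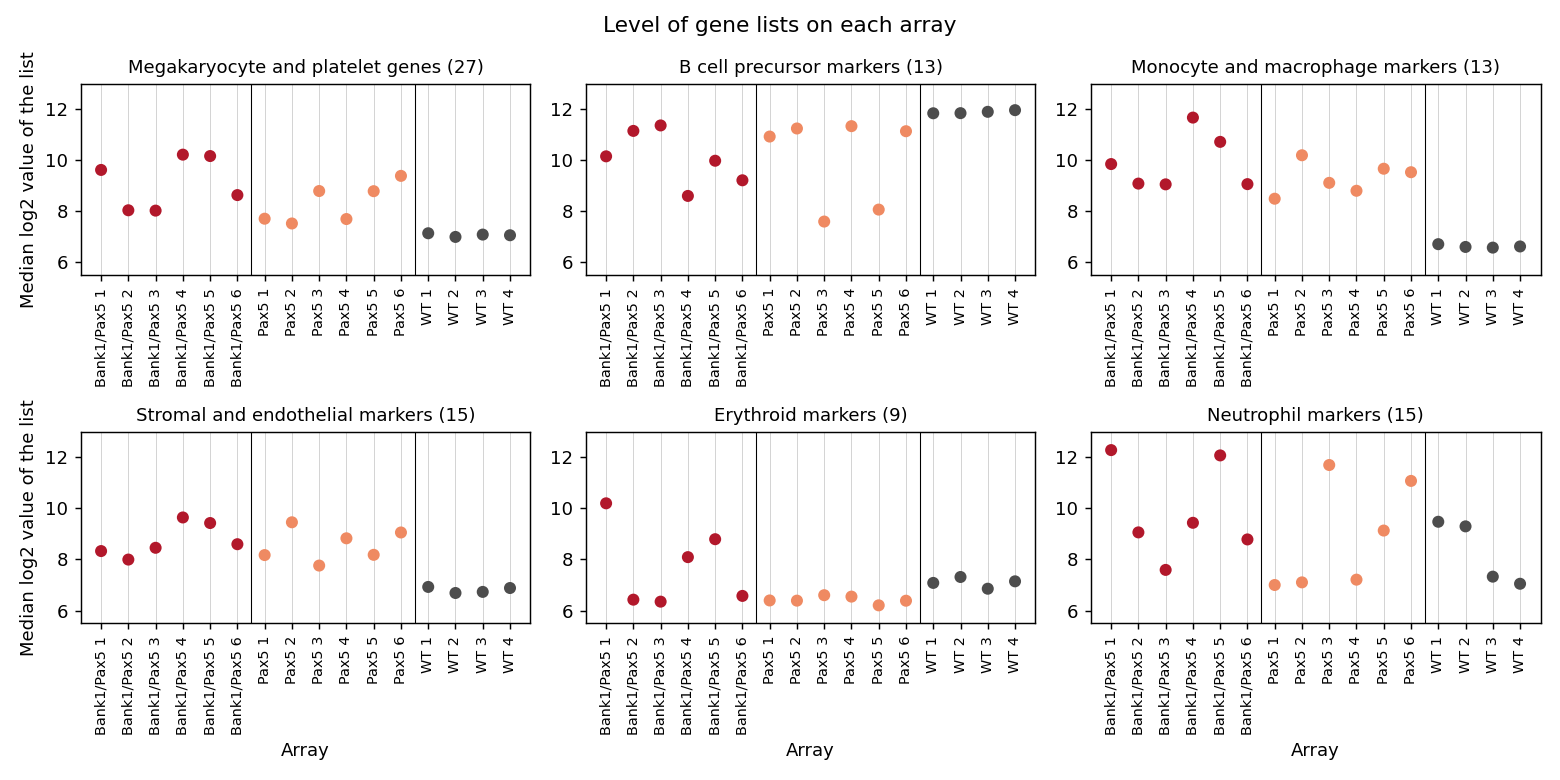
Shared level per array, as the median log2 intensity of the measured genes of a list, for the megakaryocyte and platelet genes and for lists of genes typical of other bone marrow cells. Each point is 1 array and the groups are Bank1/Pax5 leukemia, Pax5 leukemia and WT. The megakaryocyte and platelet genes of the 12 leukemia arrays lie above the 4 WT arrays, as do the monocyte and macrophage and the stromal and endothelial lists.

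Of the 27 genes, 16 rose and 0 fell in Bank1/Pax5 leukemia relative to WT cells, at a Benjamini-Hochberg adjusted p under 0.05 in limma. Over all 19938 genes, 6.8% rose and 12.8% fell in this comparison. In Pax5 leukemia relative to WT cells, 12 of the 27 rose and 0 fell, while 9.53% of all genes rose and 13.8% fell. The same 12 genes rose in both leukemias, while Vwf, Treml1, P2rx1 and Rab27b passed in Bank1/Pax5 leukemia alone and the other 11 passed in neither. These 2 comparisons share the WT arrays. The median difference of the 27 genes was 1.95 log2 for Bank1/Pax5 leukemia minus WT, where the median of all genes was -0.03, and 1.04 log2 for Pax5 leukemia minus WT, where it was -0.05. In bulk RNA such as this, a change in the number of cells of a type and a change in RNA per cell cannot be told apart.

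Every Bank1/Pax5 array lay above every WT array for 17 of the 27 genes, against 7.35% of all genes, and every Pax5 array lay above every WT array for 16 of the 27, against 11.6% of all genes. By role, the receptors for thrombin and nucleotides rose in 3 of 3 genes in Bank1/Pax5 leukemia and in 2 of 3 in Pax5 leukemia. Of 7 adhesion receptors, 5 rose with Bank1/Pax5 leukemia and 4 with Pax5 leukemia. Of 7 granule and secreted proteins, 4 rose with Bank1/Pax5 leukemia and 3 with Pax5 leukemia, and the same counts held for the 6 signalling, cytoskeletal and secretion genes. Of the 4 transcription factors, 0 passed in either comparison. Over all genes, 6.8% rose in Bank1/Pax5 leukemia and 9.53% in Pax5 leukemia, so 0 of 4 is near that share. Without adjustment, 3 of these 4 had a limma p under 0.05 in Bank1/Pax5 leukemia and 0 in Pax5 leukemia. Over all 19938 genes, 6560 and 7471 did.

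**Figure D2:**
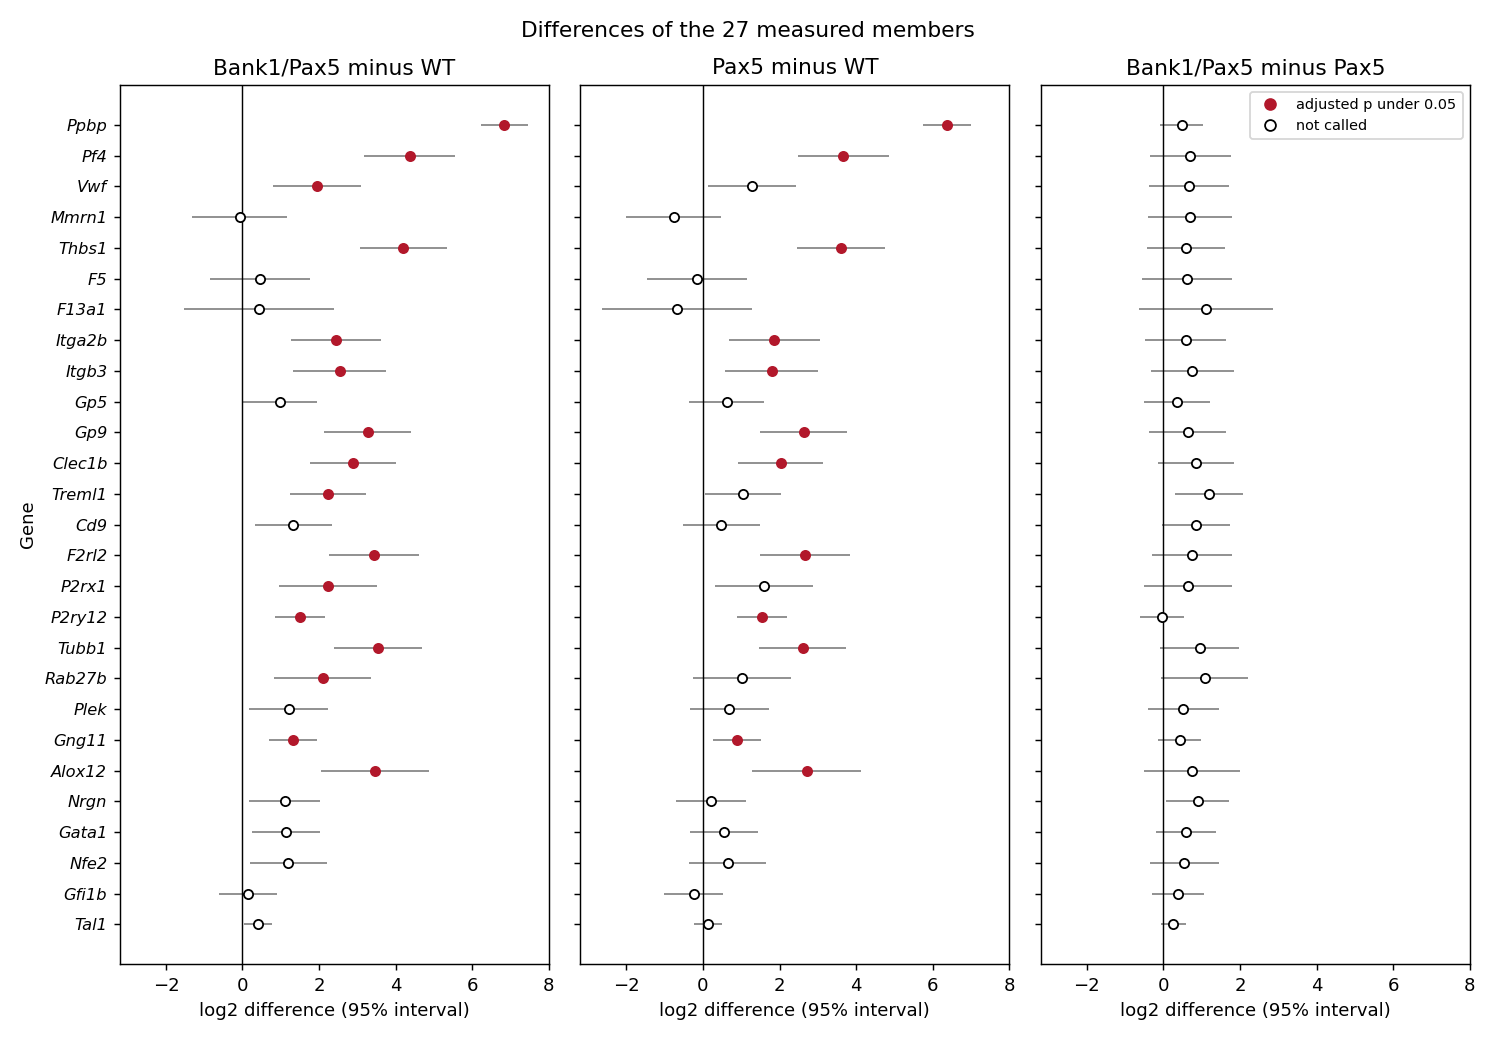
Log2 differences of the 27 genes in 3 panels, one for each leukemia against WT and one for Bank1/Pax5 against Pax5 leukemia, with bars for the 95% interval of the limma fit. Marker fill shows whether the Benjamini-Hochberg adjusted p was under 0.05. Ppbp has the largest difference from WT of the 27 in both leukemias, and no gene passes between the leukemias.

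The RefSeq promoter table (build GRCm38.p6) held 23 windows for 21 of the 27 measured genes. The 250 bases before each start were searched on both strands for the letters AGATAA or TGATAA, the core that GATA factors bind, and for CCGGAA or AGGAAG, cores bound by ETS factors. A GATA core was present in 7 of the 23 windows (30.4%), compared with 16.6% of all 32851 windows of the table. An ETS core was present in 13 (56.5%), compared with 38.2% of all windows. Both kinds were found in 3 windows (13%), compared with 5.44% of all windows. Those 3 belong to F2rl2, P2rx1 and Gp5 and are printed here, with the windows of Pf4 and Ppbp, the members with the largest differences from WT. The windows lie at chr13:95696670-95696919 on the plus strand (F2rl2), chr11:72998895-72999144 on the plus strand (P2rx1), chr16:30310782-30311031 on the minus strand (Gp5), chr5:90772185-90772434 on the plus strand (Pf4) and chr5:90768268-90768517 on the plus strand (Ppbp). Sequences run 5′ to 3′ on the strand of the gene and end next to the start, and capitals mark the matches.
F2rl2: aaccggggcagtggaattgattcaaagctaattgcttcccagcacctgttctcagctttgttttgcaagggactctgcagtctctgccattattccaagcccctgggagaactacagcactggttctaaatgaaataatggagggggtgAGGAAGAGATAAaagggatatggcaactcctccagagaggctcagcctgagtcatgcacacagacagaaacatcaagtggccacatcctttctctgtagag
P2rx1: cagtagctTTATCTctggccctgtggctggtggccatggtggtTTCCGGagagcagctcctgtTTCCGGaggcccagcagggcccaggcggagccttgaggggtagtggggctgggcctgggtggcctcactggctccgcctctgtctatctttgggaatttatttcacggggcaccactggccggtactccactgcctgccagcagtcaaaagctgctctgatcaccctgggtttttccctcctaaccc
Gp5: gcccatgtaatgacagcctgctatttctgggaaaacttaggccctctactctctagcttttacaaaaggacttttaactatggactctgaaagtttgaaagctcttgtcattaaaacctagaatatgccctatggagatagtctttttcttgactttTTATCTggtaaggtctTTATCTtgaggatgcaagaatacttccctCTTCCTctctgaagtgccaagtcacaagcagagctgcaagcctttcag
Pf4: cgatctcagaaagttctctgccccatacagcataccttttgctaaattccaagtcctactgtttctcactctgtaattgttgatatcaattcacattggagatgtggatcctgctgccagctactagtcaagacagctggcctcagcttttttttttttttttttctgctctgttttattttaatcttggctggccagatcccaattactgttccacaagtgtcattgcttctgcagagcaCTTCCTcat
Ppbp: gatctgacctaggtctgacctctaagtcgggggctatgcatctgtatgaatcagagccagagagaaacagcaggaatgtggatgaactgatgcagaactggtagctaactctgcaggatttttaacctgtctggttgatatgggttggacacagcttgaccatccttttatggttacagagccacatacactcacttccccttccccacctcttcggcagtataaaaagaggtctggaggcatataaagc
In F2rl2 the ETS core AGGAAG stands directly before the GATA core AGATAA. P2rx1 has a GATA core and 2 ETS cores on the opposite strand, and Gp5 has 2 GATA cores and an ETS core, also on the opposite strand. Pf4 has 1 ETS core, which ends 3 bases before the start, and Ppbp has no match to these letters. A match of letters is a description of the window and says nothing of binding in these cells.

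Granule and secreted proteins held the largest differences. Ppbp encodes the platelet basic protein, a chemokine precursor stored in alpha granules. Its log2 level ranged over 12.39, 13.24 and 13.62 (lowest, median and highest) on the 6 Bank1/Pax5 arrays and over 11.99, 12.50 and 13.36 on the 6 Pax5 arrays, against 6.13, 6.37, 6.33 and 6.07 on the WT arrays. The leukemia groups overlapped each other and left a wide gap to WT. Ppbp rose by 6.84 log2 in Bank1/Pax5 leukemia relative to WT (SE 0.29, adjusted p = 1.94e-09) and by 6.37 log2 in Pax5 leukemia relative to WT (SE 0.29, adjusted p = 3.3e-09). Both values were the largest positive differences among the 19938 genes.

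Pf4, platelet factor 4, is a heparin-binding chemokine of the same granules and is widely used to mark megakaryocytes. Its lowest, median and highest log2 levels were 9.56, 11.10 and 12.03 in Bank1/Pax5 leukemia and 8.92, 9.76 and 11.79 in Pax5 leukemia, against 6.42, 6.50, 6.43 and 6.60 in WT cells. No leukemia array came near the WT arrays. Pf4 rose by 4.37 log2 in Bank1/Pax5 leukemia relative to WT (SE 0.56, adjusted p = 8.36e-05) and by 3.66 log2 in Pax5 leukemia relative to WT (SE 0.56, adjusted p = 0.000314).

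Thbs1, the matrix glycoprotein thrombospondin 1, rose by 4.20 log2 in Bank1/Pax5 leukemia and by 3.61 log2 in Pax5 leukemia relative to WT (adjusted p = 8.19e-05 and 0.000258). Its WT arrays were less alike than those of the chemokines, at 7.36, 8.05, 6.72 and 6.58. Vwf encodes von Willebrand factor, which tethers platelets to damaged vessel walls and is also made by endothelial cells. Vwf rose by 1.95 log2 in Bank1/Pax5 leukemia relative to WT (adjusted p = 0.0203, and 0.0579 with WT array 3 left out), and its difference in Pax5 leukemia was 1.28 log2 (adjusted p = 0.101, and 0.0336 with only Pax5 and WT arrays in the fit). With a replicate block, with a Y-linked covariate or without WT arrays 1 and 2, Vwf also no longer passed in Bank1/Pax5 leukemia. The highest adjusted p there was 0.12.

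The other 3 secreted proteins did not pass in either comparison with WT and were already well above the dim range in WT cells. Mmrn1, the factor V carrier multimerin 1, had a lowest, median and highest level of 6.70, 8.42 and 9.09 in Bank1/Pax5 leukemia and 6.18, 7.24 and 8.96 in Pax5 leukemia, against 7.77 to 8.52 in WT cells. F5, coagulation factor V, ranged from 6.64 to 9.70 in Bank1/Pax5 leukemia and from 6.49 to 8.77 in Pax5 leukemia, against 7.51 to 8.10 in WT cells. F13a1, the catalytic subunit of factor XIII and also a macrophage gene, had the widest spread of the 27 genes: 6.36 to 11.39 in Bank1/Pax5 leukemia and 6.32 to 9.58 in Pax5 leukemia, against 8.29 to 8.71 in WT cells. For all 3 genes leukemia arrays lay on both sides of the WT arrays. Their differences from WT ran between -0.77 and 0.46 log2, with adjusted p from 0.352 to 0.949.

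**Figure D3:**
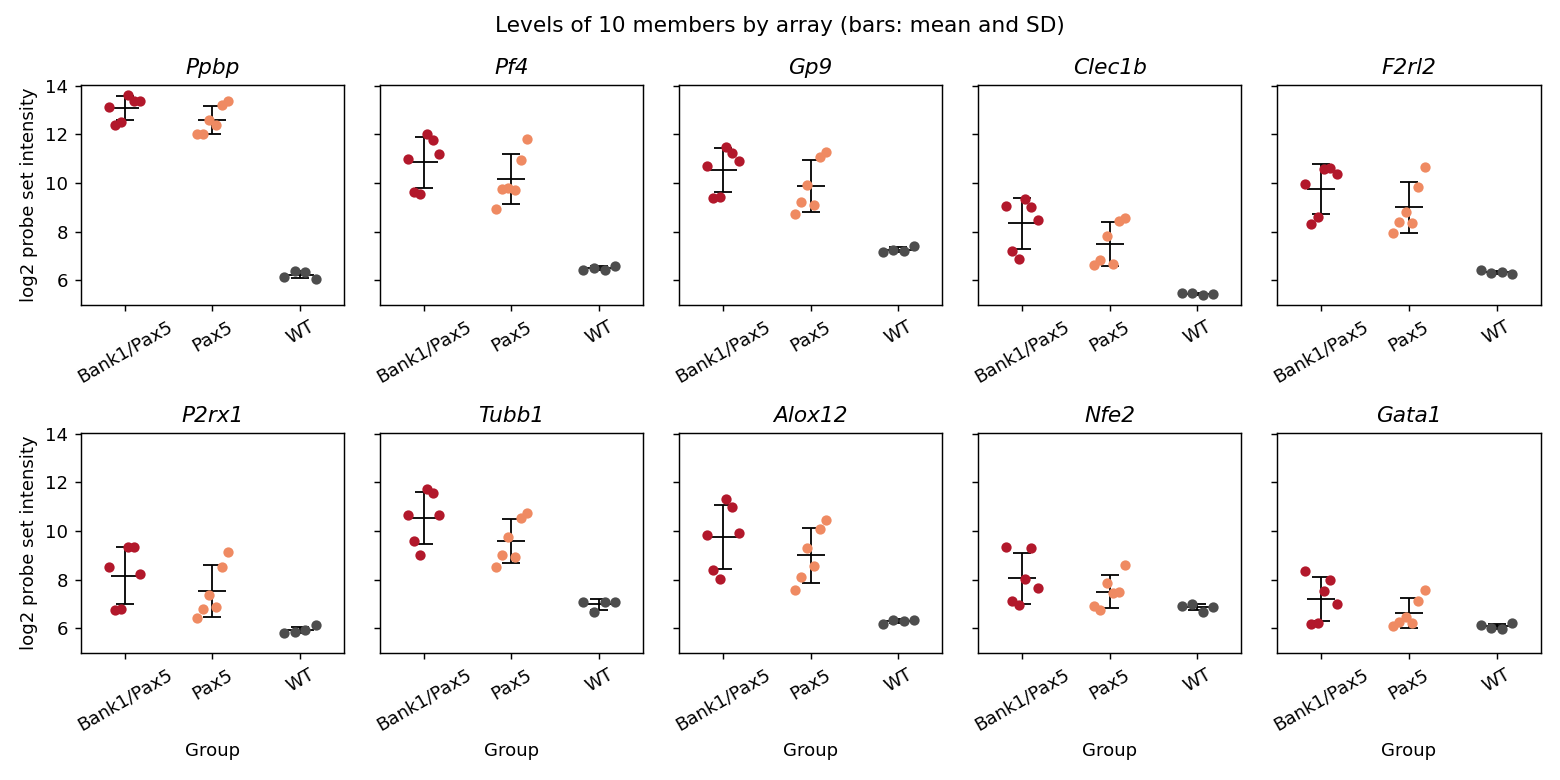
Log2 intensity of named genes on every array, by group, with Bank1/Pax5 leukemia, Pax5 leukemia and WT side by side. Points are arrays, and the bar with its whiskers is the group mean ± SD. Ppbp, Pf4, Gp9, Clec1b, F2rl2, P2rx1, Tubb1 and Alox12 have every leukemia array above every WT array, while Nfe2 and Gata1 overlap with WT.

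Adhesion receptors hold platelets to matrix and to each other. Gp9 is the small subunit of the glycoprotein Ib-IX-V complex, the receptor for von Willebrand factor. Its lowest, median and highest levels were 9.39, 10.80 and 11.49 in Bank1/Pax5 leukemia and 8.74, 9.56 and 11.28 in Pax5 leukemia, against 7.17, 7.24, 7.19 and 7.41 in WT cells. The leukemia arrays were all above WT and differed among themselves by about as much in either group. Gp9 rose by 3.27 log2 in Bank1/Pax5 leukemia relative to WT (SE 0.53, adjusted p = 0.000573) and by 2.63 log2 in Pax5 leukemia relative to WT (SE 0.53, adjusted p = 0.00257).

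Clec1b, the podoplanin receptor CLEC-2, was lowest in WT cells, at 5.46, 5.49, 5.39 and 5.45. Leukemia arrays of Clec1b had a lowest, median and highest level of 6.87, 8.76 and 9.34 with Bank1/Pax5 leukemia and of 6.62, 7.32 and 8.57 with Pax5 leukemia, without overlap with WT. Clec1b rose by 2.89 log2 in Bank1/Pax5 leukemia relative to WT (SE 0.52, adjusted p = 0.00129) and by 2.04 log2 in Pax5 leukemia relative to WT (SE 0.52, adjusted p = 0.0115).

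Itga2b and Itgb3 encode the alpha IIb and beta 3 chains of the fibrinogen receptor, the integrin through which platelets aggregate. Itga2b rose by 2.44 log2 in Bank1/Pax5 leukemia (adjusted p = 0.00616) and by 1.86 log2 in Pax5 leukemia (adjusted p = 0.0253). Itgb3 rose by 2.54 log2 in Bank1/Pax5 leukemia (adjusted p = 0.00561) and by 1.80 log2 in Pax5 leukemia (adjusted p = 0.0334). Both chains had every leukemia array above every WT array. The calls in Pax5 leukemia were narrow: both ended without any one of the 4 WT arrays, or without Pax5 array 5 or 6 (adjusted p 0.0513 to 0.0627 for Itga2b and 0.0631 to 0.0776 for Itgb3), and leaving out Pax5 array 3 ended that of Itgb3 (adjusted p = 0.0592).

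Treml1, a receptor-like protein of alpha granules, rose by 2.23 log2 in Bank1/Pax5 leukemia (adjusted p = 0.00342), and its difference in Pax5 leukemia was 1.04 log2 (adjusted p = 0.115) with every leukemia array of both groups above WT. Gp5, the subunit of the Ib-IX-V complex that thrombin cleaves, ranged from 7.44 to 9.15 in Bank1/Pax5 leukemia and from 7.18 to 9.60 in Pax5 leukemia, against 7.28 to 7.60 in WT cells. Its differences of 0.97 and 0.62 log2 did not pass (adjusted p = 0.153 and 0.339). Cd9, a tetraspanin found on platelets and on many other cells, had differences of 1.33 log2 in Bank1/Pax5 leukemia (adjusted p = 0.0595) and 0.48 log2 in Pax5 leukemia (adjusted p = 0.478). Cd9 lay close to the threshold in Bank1/Pax5 leukemia: it passed with cyclic loess or with dim probe sets removed (adjusted p = 0.0493 and 0.0353), and without Bank1/Pax5 array 2 or 3 (adjusted p = 0.0146 and 0.0298).

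Receptors for thrombin and nucleotides start and amplify platelet activation. F2rl2 encodes the protease-activated receptor 3, which assists thrombin signalling on mouse platelets. F2rl2 had a lowest, median and highest level of 8.33, 10.17 and 10.61 in Bank1/Pax5 leukemia and 7.94, 8.60 and 10.65 in Pax5 leukemia, against 6.42, 6.28, 6.33 and 6.25 in WT cells. The highest of all its arrays was Pax5 array 6, and no leukemia array overlapped with WT. F2rl2 rose by 3.43 log2 in Bank1/Pax5 leukemia relative to WT (SE 0.55, adjusted p = 0.000532) and by 2.68 log2 in Pax5 leukemia relative to WT (SE 0.55, adjusted p = 0.00293).

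P2rx1 is an ATP-gated cation channel. Its lowest, median and highest levels were 6.74, 8.38 and 9.36 in Bank1/Pax5 leukemia and 6.44, 7.13 and 9.14 in Pax5 leukemia, against 5.80, 5.85, 5.95 and 6.12 in WT cells. Again the leukemia arrays were all above WT. P2rx1 rose by 2.24 log2 in Bank1/Pax5 leukemia relative to WT (SE 0.60, adjusted p = 0.0168), and its difference in Pax5 leukemia was 1.59 log2 (SE 0.60, adjusted p = 0.0691). That difference passed with dim probe sets removed (adjusted p = 0.0476), with only Pax5 and WT arrays in the fit (adjusted p = 0.0374) and with Pax5 array 1 left out (adjusted p = 0.0412). With a replicate block, with a Y-linked covariate or without WT arrays 1 and 2, P2rx1 no longer passed in Bank1/Pax5 leukemia. The highest adjusted p there was 0.128.

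P2ry12, the ADP receptor that clopidogrel-type drugs block and that microglia also carry, had its highest value on Pax5 array 3. Its levels were 7.91, 8.48 and 9.05 (lowest, median and highest) in Bank1/Pax5 leukemia and 7.60, 8.37 and 9.63 in Pax5 leukemia, against 7.11, 6.97, 6.88 and 7.07 in WT cells. The leukemia arrays were all above WT and sat at much the same height in the 2 leukemias. P2ry12 rose by 1.50 log2 in Bank1/Pax5 leukemia (adjusted p = 0.00304) and by 1.54 log2 in Pax5 leukemia (adjusted p = 0.00225) relative to WT.

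Signalling, cytoskeletal and secretion genes come next. Tubb1 is the beta 1 tubulin of the platelet microtubule ring. It read 9.03, 10.65 and 11.73 (lowest, median and highest) in Bank1/Pax5 leukemia and 8.54, 9.38 and 10.76 in Pax5 leukemia, against 7.09, 6.66, 7.09 and 7.10 in WT cells. All leukemia arrays stood above WT, by the most on Bank1/Pax5 arrays 4 and 5. Tubb1 rose by 3.55 log2 in Bank1/Pax5 leukemia relative to WT (SE 0.54, adjusted p = 0.00034) and by 2.60 log2 in Pax5 leukemia relative to WT (SE 0.54, adjusted p = 0.00298).

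Alox12, the platelet 12-lipoxygenase that oxidises arachidonic acid, had levels of 8.03, 9.88 and 11.33 in Bank1/Pax5 leukemia and 7.58, 8.92 and 10.47 in Pax5 leukemia, against 6.20, 6.36, 6.31 and 6.36 in WT cells. The WT arrays lay close together and far below every leukemia array. Alox12 rose by 3.45 log2 in Bank1/Pax5 leukemia relative to WT (SE 0.66, adjusted p = 0.00203) and by 2.70 log2 in Pax5 leukemia relative to WT (SE 0.66, adjusted p = 0.00888).

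Rab27b, a small GTPase of granule secretion, rose by 2.10 log2 in Bank1/Pax5 leukemia relative to WT (adjusted p = 0.0222), a call that ended, narrowly, without any one of the 4 WT arrays (values of 0.0503 to 0.056). Its difference in Pax5 leukemia was 1.02 log2 (adjusted p = 0.226). Gng11, a G protein gamma subunit, rose by 1.31 log2 in Bank1/Pax5 leukemia (adjusted p = 0.00566) and by 0.88 log2 in Pax5 leukemia (adjusted p = 0.0412). Gng11 was dim in all 3 groups, and its call in Pax5 leukemia ended when any 1 WT array or Pax5 array 2, 4, 5 or 6 was left out (adjusted p 0.0512 to 0.0997).

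Plek, the protein kinase C substrate pleckstrin, is abundant in platelets and in other blood cells. Plek ranged from 9.97 to 12.16 in Bank1/Pax5 leukemia and from 9.65 to 11.65 in Pax5 leukemia, against 9.94 to 10.25 in WT cells, and its differences of 1.20 and 0.68 log2 did not pass (adjusted p = 0.0955 and 0.32). Without Bank1/Pax5 array 2, Plek passed in Bank1/Pax5 leukemia (adjusted p = 0.0312). Nrgn, the calmodulin-binding protein neurogranin, had every Bank1/Pax5 array above WT, at 9.77, 10.19 and 10.36 (lowest, median and highest), while Pax5 leukemia spanned 7.22 to 10.26, against 8.94 to 9.10 in WT cells. Its difference was 1.10 log2 in Bank1/Pax5 leukemia (adjusted p = 0.0892) and 0.21 log2 in Pax5 leukemia (adjusted p = 0.752). Pax5 array 2 alone held the lowest value, and without it Nrgn passed in Bank1/Pax5 leukemia (adjusted p = 0.00538), as it did with only Bank1/Pax5 and WT arrays in the fit (adjusted p = 0.000316).

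The transcription factors did not pass in either comparison with WT. Nfe2 encodes the blood-specific subunit of NF-E2, which drives the last steps of platelet formation. Nfe2 read 6.94, 7.84 and 9.34 (lowest, median and highest) in Bank1/Pax5 leukemia and 6.76, 7.48 and 8.59 in Pax5 leukemia, against 6.90, 7.00, 6.68 and 6.89 in WT cells. Bank1/Pax5 arrays 1 and 5 were the highest. Of the 6 arrays of each leukemia, 5 with Bank1/Pax5 leukemia and 4 with Pax5 leukemia lay above the highest WT array, and the others overlapped with WT. The difference was 1.20 log2 in Bank1/Pax5 leukemia (SE 0.47, adjusted p = 0.0895) and 0.65 log2 in Pax5 leukemia (SE 0.47, adjusted p = 0.334). Leaving out Bank1/Pax5 array 2 or 3, which had low values, brought Nfe2 past the threshold (adjusted p = 0.0477 and 0.0426).

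Gata1, the master regulator of megakaryocyte and erythroid development, read 6.20, 7.27 and 8.36 in Bank1/Pax5 leukemia and 6.11, 6.36 and 7.59 in Pax5 leukemia, against 6.12, 6.02, 5.98 and 6.20 in WT cells. Its groups overlapped with WT as well, and the highest value was again on Bank1/Pax5 array 1. The difference of Gata1 was 1.13 log2 in Bank1/Pax5 leukemia (SE 0.41, adjusted p = 0.0671) and 0.55 log2 in Pax5 leukemia (SE 0.41, adjusted p = 0.349). Gata1 passed in Bank1/Pax5 leukemia with dim probe sets removed (adjusted p = 0.0405) and without Bank1/Pax5 array 2 or 3 (adjusted p = 0.0256 and 0.0302). Gfi1b, a repressor of both lineages, and Tal1, a partner of GATA1, had differences between -0.24 and 0.40 log2, with adjusted p from 0.12 to 0.814. Gfi1b was already at 8.38 to 8.64 in WT cells.

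The leukemic marrows varied far more in these genes than WT cells did. Across the Bank1/Pax5 marrows the SD of a typical member (the median over the 27 genes) was 1.04 log2, across the Pax5 marrows it was 0.93 log2 and across WT arrays 0.13 log2. A typical gene of the whole table had an SD of 0.18 log2 among Bank1/Pax5 arrays, 0.16 log2 among Pax5 arrays and 0.09 log2 among WT arrays. Among the 12 leukemia arrays, Bank1/Pax5 array 4 held the highest value of 15 of the 27 genes, array 5 that of 4 and array 1 that of 3. Bank1/Pax5 array 5 was among the 5 highest arrays for all 27 genes, and Bank1/Pax5 array 4 and Pax5 array 6 were for 25 each. At the other end, Pax5 array 1 held the lowest value of 18 genes, Pax5 array 2 that of 7 and Pax5 array 4 that of 2.

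**Figure D4:**
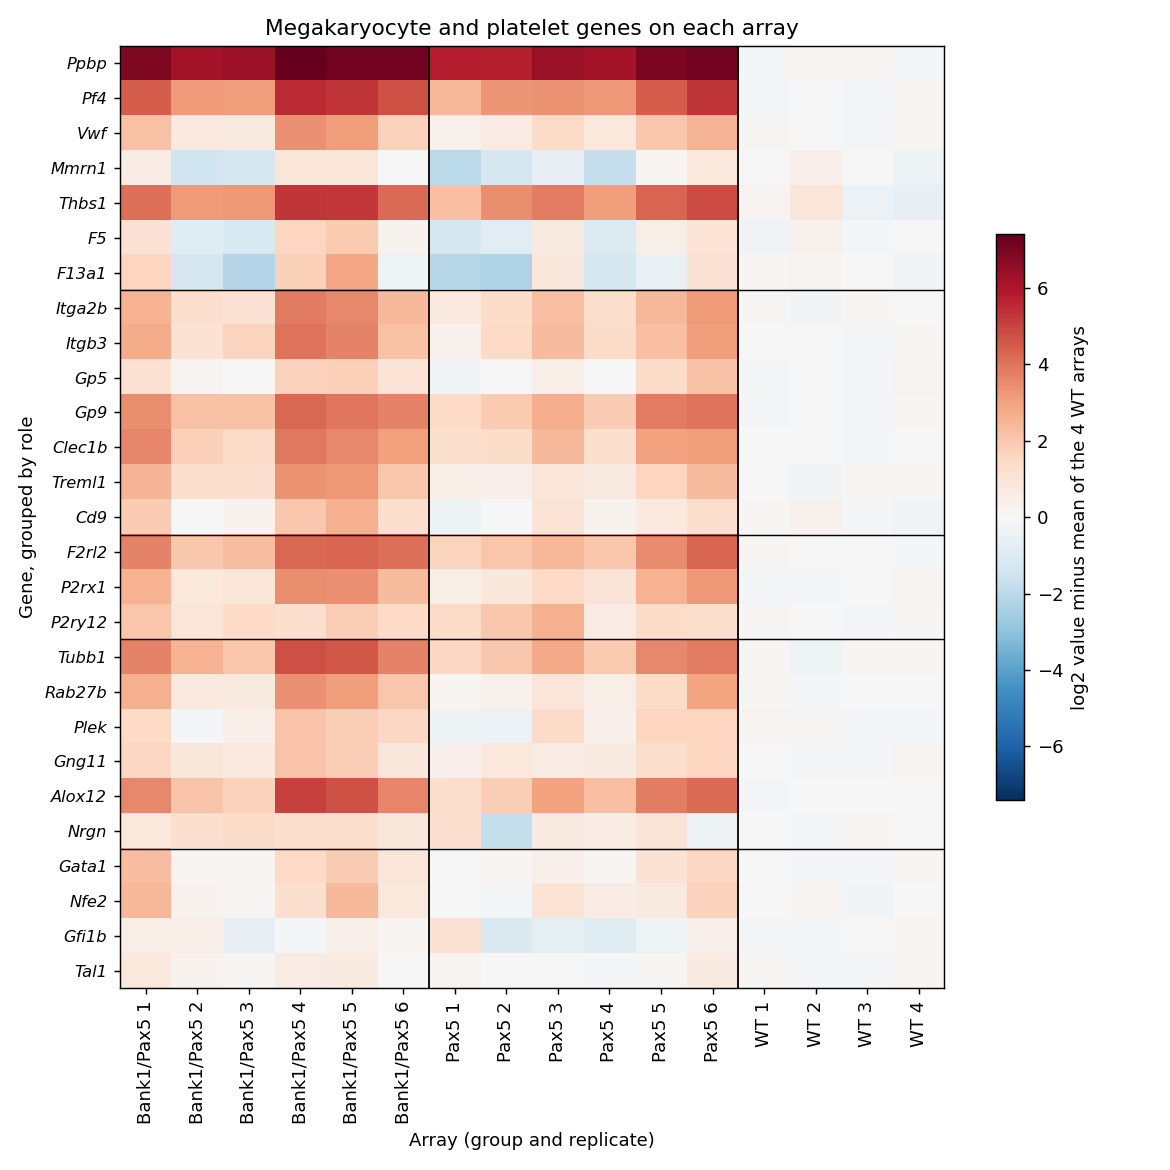
Log2 intensity of the 27 genes on the 16 arrays, each minus the gene's mean over the WT arrays, with genes in rows by role and arrays in columns in the order Bank1/Pax5 leukemia, Pax5 leukemia and WT. Columns of Bank1/Pax5 arrays 4 and 5 and Pax5 array 6 are among the reddest in most rows above the transcription factors, whose rows are paler.

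Most of the highest arrays were shared from gene to gene, though their exact order was not compared. Bank1/Pax5 array 6 and Pax5 array 5 were among the 5 highest for 12 genes each, and Pax5 array 3 for 5. When each gene's 5 highest leukemia arrays were set against the 5 highest by the median of the other members, 3 genes shared all 5, 21 shared 4, Gfi1b shared 3, and P2ry12 and Nrgn shared 2. Gfi1b was highest on Pax5 array 1, Nrgn on Bank1/Pax5 array 3 and P2ry12 on Pax5 array 3. Gata1, Nfe2 and Tal1 were highest on Bank1/Pax5 array 1, not on array 4, and Gp5 and F2rl2 on Pax5 array 6. The genes share arrays, so this is a description of 12 marrows and carries no test.

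Between the leukemias, 0 of the 27 genes passed in limma, where 1.71% of all genes passed as higher and 5.0% as lower in Bank1/Pax5 leukemia. Without adjustment 2 of the 27, Treml1 and Nrgn, had a limma p under 0.05, compared with 4518 of all 19938 genes. The 27 genes thus did not exceed the background in this count. Treml1 had lowest, median and highest levels of 8.91, 10.01 and 11.06 in Bank1/Pax5 leukemia and 8.09, 8.50 and 10.08 in Pax5 leukemia, with overlapping groups and a difference of 1.19 log2 (SE 0.41, adjusted p = 0.0999). Leaving out Bank1/Pax5 array 2 or Pax5 array 6 brought Treml1 past the threshold (adjusted p = 0.0497 and 0.0443). Nrgn differed by 0.89 log2 (adjusted p = 0.188).

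The estimates leaned one way without passing. Of the 27 genes, 26 had a positive difference for Bank1/Pax5 minus Pax5 leukemia, compared with 55.1% of all genes, and the median was 0.65 log2 against 0.02 over all genes. Since the genes rise and fall together over the same 12 arrays, the 26 are not separate observations. For Ppbp the 95% interval of the difference was -0.08 to 1.03 log2, for Pf4 -0.36 to 1.77 and for F13a1 -0.64 to 2.86, and P2ry12 was the 1 gene below 0, at -0.04 log2. In 0 of the 27 genes did every Bank1/Pax5 array lie above every Pax5 array, against 0.833% of all genes.

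Other genes known from platelets and megakaryocytes, beyond the 32, rose more often than they fell. Of 38 listed, 36 were measured: 17 rose and 3 fell in Bank1/Pax5 leukemia relative to WT, and 10 rose and 3 fell in Pax5 leukemia relative to WT. Over all genes, 6.8% rose and 12.8% fell in Bank1/Pax5 leukemia, and 9.53% rose and 13.8% fell in Pax5 leukemia, so falling genes were no more frequent in the list than elsewhere. Sparc, a matrix protein of platelet granules and of stromal cells, rose by 4.30 log2 in Bank1/Pax5 leukemia and by 4.35 log2 in Pax5 leukemia (adjusted p = 8.41e-06 and 7.34e-06). Myl9, the myosin light chain of platelets and smooth muscle, rose by 3.77 log2 in Bank1/Pax5 leukemia (adjusted p = 0.000239), and Tmem40 rose by 2.08 log2 (adjusted p = 0.000138). Vps33b, a sorting protein needed for alpha granules, fell by 1.19 log2 in Bank1/Pax5 leukemia relative to WT (adjusted p = 3.37e-05). In Pax5 leukemia relative to WT, Nbeal2, another alpha granule gene, rose by 1.21 log2 (adjusted p = 0.000612). Fli1, an ETS factor of megakaryocytes and of other blood cells, fell there by 0.72 log2 (adjusted p = 0.000252). The same directions were called in the other leukemia. In Pax5 leukemia Myl9 rose by 2.975 log2, Tmem40 rose by 1.58 log2 and Vps33b fell by 0.67 log2 (adjusted p = 0.00129, 0.00107 and 0.00246). In Bank1/Pax5 leukemia Nbeal2 rose by 0.83 log2 and Fli1 fell by 0.56 log2 (adjusted p = 0.00937 and 0.00183).

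Between the leukemias, 1 of these 36 genes was called higher and 2 lower in Bank1/Pax5 leukemia, where 1.71% and 5.0% of all genes were, so the count is near the background. Tbxa2r, the thromboxane receptor, was lower in Bank1/Pax5 leukemia, at 8.91, 9.13 and 9.61 (lowest, median and highest) in Bank1/Pax5 leukemia and 9.66, 10.12 and 10.28 in Pax5 leukemia, without overlap. It fell by 0.82 log2 in Bank1/Pax5 relative to Pax5 leukemia (adjusted p = 0.00355), and it had risen in both leukemias relative to WT, by 0.56 log2 in Bank1/Pax5 leukemia (adjusted p = 0.0163, and 0.056 without WT array 4) and by 1.39 log2 in Pax5 leukemia (adjusted p = 2e-05). Srgn, the granule proteoglycan serglycin, was 0.30 log2 higher in Bank1/Pax5 leukemia than in Pax5 leukemia (adjusted p = 0.00602). Vps33b was lower by a difference of -0.51 log2 (adjusted p = 0.0223, and 0.0537 without Bank1/Pax5 array 5).

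Genes typical of some other bone marrow cells rose beside the megakaryocyte and platelet genes, and those of others did not. Over all genes, 6.8% rose and 12.8% fell in Bank1/Pax5 leukemia, and 9.53% rose and 13.8% fell in Pax5 leukemia. Of 13 measured monocyte and macrophage genes, 10 rose in Bank1/Pax5 leukemia and 7 in Pax5 leukemia relative to WT. Their level per array was 9.06 to 11.67 in Bank1/Pax5 leukemia and 8.50 to 10.20 in Pax5 leukemia, against 6.58 to 6.72 in WT cells, and it too was highest on Bank1/Pax5 array 4. Of 15 stromal and endothelial genes, which include Vwf, 9 rose in each leukemia, with levels of 7.99 to 9.64 in Bank1/Pax5 leukemia and 7.76 to 9.45 in Pax5 leukemia, against 6.69 to 6.92 in WT cells. Neutrophil genes split the WT arrays, at 9.47, 9.29, 7.33 and 7.05, and 1 of 15 rose in each leukemia. Of 8 NK cell genes, 4 fell in Bank1/Pax5 leukemia and 6 in Pax5 leukemia. Their level was 6.35 to 8.42 in Bank1/Pax5 leukemia and 5.76 to 6.21 in Pax5 leukemia, against 8.40 to 9.06 in WT cells. In the T cell, mast cell and basophil, and stem and progenitor lists, 0 of 7, 1 of 9 and 2 of 9 genes rose in each leukemia.

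The erythroid list took another course. Of 9 measured erythroid genes, 0 were called in Bank1/Pax5 leukemia relative to WT and Alas2 alone fell in Pax5 leukemia. Their level was 10.20, 6.43, 6.35, 8.09, 8.79 and 6.57 on Bank1/Pax5 arrays 1 to 6 and 6.20 to 6.60 in Pax5 leukemia, against 6.85 to 7.31 in WT cells. It was highest on Bank1/Pax5 array 1, the array on which Gata1, Nfe2 and Tal1 were highest. The level of 13 measured B cell precursor genes was 8.61 to 11.36 in Bank1/Pax5 leukemia and 7.60 to 11.34 in Pax5 leukemia, against 11.84 to 11.96 in WT cells. The arrays with the lowest level of these genes were Pax5 arrays 3 and 5 and Bank1/Pax5 array 4. With those 3 arrays removed, 15 of the 27 genes rose in Bank1/Pax5 leukemia and 9 in Pax5 leukemia relative to WT. Over all genes, calls in either direction were then 4213 in Bank1/Pax5 leukemia (3899 with all arrays) and 4234 in Pax5 leukemia (4655 with all arrays). The part of these other cell types in the result was not tested.

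Sex-linked genes differed between the groups too. The mean log2 level of 3 Y-linked genes was low on all 4 WT arrays (4.83 to 4.85) and on 3 of the 12 leukemia arrays. That level was used as a covariate after the data were seen. With it, 13 of the 27 genes rose in Bank1/Pax5 leukemia and 4 in Pax5 leukemia relative to WT. Over all genes, calls in either direction were 2857 in Bank1/Pax5 leukemia (3899 without the covariate) and 3235 in Pax5 leukemia (4655 without it). The count in Pax5 leukemia thus depends on this covariate. Since the Y-linked level was low on every WT array and high on most leukemia arrays, the fit cannot fully separate it from leukemia. The WT level of 13 of the 27 genes was dim, meaning a group mean under 7.01 log2, the median over named probe sets, and the size of a difference is not well bounded for those genes. They include 11 of the 16 genes that rose in Bank1/Pax5 leukemia and 8 of the 12 that rose in Pax5 leukemia.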

How the data were processed

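RNA of 16 samples was biotin-labelled and hybridised to mouse arrays, 1 per sample. The authors deposited log2 intensities per probe set, made with RMA in the oligo package, per the submitters' processing notes. The sources used here give no versions, background settings, scan batches or genome build of the array. Values lay between 3.82 and 14.3 log2 and array medians between 6.58 and 6.71. The number of arrays limits the precision. Within groups, arrays correlated at 0.944 to 0.987 in Bank1/Pax5 leukemia, 0.968 to 0.982 in Pax5 leukemia and 0.992 to 0.995 in WT cells.

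Of 35556 probe sets, 21789 named 1 gene, 1621 several and 12146 none in the platform annotation. Those naming 1 gene gave 19938 genes, 999 of them with more than 1 probe set. A linear model with 3 group means was fitted to all genes and arrays with limma 3.58.1 in R 4.3.3, with empirical Bayes moderation. It assumes 1 spread per gene for all groups, which WT arrays did not share. A gene was called at an adjusted p under 0.05 (two-sided, Benjamini-Hochberg, over all 19938 genes), and SE is the moderated standard error. The procedure was tested on simulated data drawn with 1 spread per gene for all groups. That test therefore cannot show how the unequal spread of the real groups affects the calls.

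The labels call the samples biological replicates of separate mice, although the design text names fewer WT mice than there are WT arrays. If each array is a separate mouse, p-values measure the spread between mice, pooled over the groups. The members, the role groups and the other lists were chosen with earlier results of these data known. Genes named in full are the 2 per role group with the largest difference between leukemia and WT, plus Nfe2 and Gata1 for the transcription factors and any member called between the leukemias. Of the other platelet and megakaryocyte genes and the other lists, those with the smallest p are named. Alternatives were other scalings, a filter on dim probe sets, the mean of probe sets, another variance model, only the compared groups, a replicate block and leaving out each array. Leaving out WT arrays 1 and 2, leaving out 3 leukemia arrays with few B cell precursor transcripts, and the covariate of Y-linked genes were chosen after seeing the data.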

Additional observations from a re-analysis of the deposited data

Results flagged for a closer look

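In 2 of 84 groups of values, made of the 27 genes and their shared level in each of the 3 groups, 1 array stood far from the others, and chance alone gives about 1 such group in 20. Both cases fall on WT array 2. Treml1 read 7.51 log2 there, against 7.80 to 7.84 on the other WT arrays. Tubb1 read 6.66 log2 there, against 7.09 to 7.10 on the other WT arrays. For each gene this array lies further below the leukemia arrays than the other WT arrays do.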

How the results depend on the processing

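Of the genes that rose relative to WT, 9 of 16 in Bank1/Pax5 leukemia and 4 of 12 in Pax5 leukemia passed under every alternative run, Ppbp, Pf4, Thbs1 and P2ry12 in both. Without WT arrays 1 and 2, 9 genes rose in Bank1/Pax5 leukemia and 7 in Pax5 leukemia, and 1813 of all genes were called in Bank1/Pax5 leukemia (3899 with all arrays), 2561 in Pax5 leukemia (4655 with all arrays) and 731 between the leukemias (1336 with all arrays). With the Y-linked covariate, 4 rose in Pax5 leukemia, where 3235 of all genes were called. In their deviations from group means, same-numbered arrays correlated at -0.379 to 0.122 for Bank1/Pax5 with Pax5 (0 of 6 closest to their own number), -0.134 to 0.321 for Bank1/Pax5 with WT (2 of 4) and -0.284 to 0.203 for Pax5 with WT (1 of 4), so the numbers were not taken to pair the samples. With the replicate block, 13 and 8 of the 27 genes rose in Bank1/Pax5 and Pax5 leukemia and 0 differed between them, and 2542 genes were called in Bank1/Pax5 leukemia minus WT and 696 between the leukemias. With only the 2 leukemias in the fit, 446 were called between them. Leaving out 1 array at a time gave 14 to 20, 9 to 13 and 0 to 1 of the 27 genes for Bank1/Pax5 minus WT, Pax5 minus WT and Bank1/Pax5 minus Pax5, 2678 to 4531, 3072 to 5560 and 725 to 1742 calls over all genes, and shared levels apart by 1.82 to 2.26, 1.03 to 1.40 and 0.58 to 1.02 log2. Among the 27 genes, signs turned only for differences that were not called. In Bank1/Pax5 leukemia minus WT, Mmrn1 was 0.030 with cyclic loess, 0.10 without WT arrays 1 and 2, and -0.27 to 0.21 with 1 array left out. F13a1 there was -0.029 with the block, -0.059 with the Y-linked covariate and -0.065 to 0.94 with 1 array left out, and Gfi1b was -0.23 with that covariate. In Pax5 leukemia minus WT, F5 was -0.39 to 0.061 with 1 array left out, and Nrgn was -0.49 with the covariate and -0.090 without the 3 leukemia arrays low in B cell precursor genes. P2ry12 between the leukemias was 0.030 with cyclic loess, 0.23 without those 3 arrays, and -0.23 to 0.18 with 1 array left out. Vps33b missed the threshold between the leukemias with cyclic loess, the 2-group fit and the block (adjusted p 0.0649 to 0.074). The causes were not tested.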

Other observations

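Gp1bb, the beta subunit of glycoprotein Ib, shares its probe set with the neighbouring gene Septin5, so its signal cannot be assigned to either gene and was kept out of the comparisons. That probe set read 9.25, 7.47, 7.08, 7.96, 9.50 and 7.50 log2 on Bank1/Pax5 arrays 1 to 6 and 7.08, 7.19, 8.27, 7.24, 7.80 and 8.80 log2 on Pax5 arrays 1 to 6, against 7.19, 7.03, 6.78 and 6.75 log2 on the WT arrays. Leukemia arrays overlapped with WT.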
